A study of Mus musculus with 6 samples.

Results

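The annexins were followed here as a family of 9 genes, Anxa1, Anxa2, Anxa3, Anxa4, Anxa5, Anxa6, Anxa7, Anxa8 and Anxa11, out of 56953 genes in the table. They were chosen by gene symbol, after their Ensembl identifiers had been matched to the mouse gene annotation, and all 9 were found. RNA was sequenced from mouse embryonic fibroblasts (MEFs), connective tissue cells grown from embryos, in 3 libraries labelled WT and 3 labelled GαqKO. The GαqKO cells lack Gαq/11 by the study's description, the alpha subunits of G proteins that activate phospholipase C beta and raise cytosolic calcium, and carry no other allele in the labels. Both lines came from the same provider and were grown in the same medium with serum, without treatment. The study's methods list 1 source of MEFs for each genotype and do not say whether it was a clone, so a difference between genotypes cannot be told apart from a difference between lines.

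Annexins are soluble proteins that bind acidic phospholipids when calcium rises, through a core of repeated helical domains, and that differ from each other mostly in the segment ahead of this core. They gather at the inner face of the plasma membrane and on endosomes, where they take part in membrane traffic, in links between membrane and actin, and in closing wounds of the plasma membrane. Several work with small calcium-binding partners of the S100 and penta-EF-hand families.

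The upstream sequences of Anxa7, Anxa5 and Anxa11 are shown because these 3 members were higher in the GαqKO libraries and had a window outside the gene. They are taken from the RefSeq promoter table, matched exactly to GRCm39, and cut where the GENCODE gene begins. Capitals mark GGGCGG, the GC box, on either strand.
Anxa7, minus strand, chr14:20530202-20530451: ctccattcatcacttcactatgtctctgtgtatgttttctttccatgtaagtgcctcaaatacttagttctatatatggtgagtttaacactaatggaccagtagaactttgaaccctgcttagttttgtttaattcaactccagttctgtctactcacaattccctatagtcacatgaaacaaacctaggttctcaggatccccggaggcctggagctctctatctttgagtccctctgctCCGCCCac
Anxa5, minus strand, chr3:36530127-36530286: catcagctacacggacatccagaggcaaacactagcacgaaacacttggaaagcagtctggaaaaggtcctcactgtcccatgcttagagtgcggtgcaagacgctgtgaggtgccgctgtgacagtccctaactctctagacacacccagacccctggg
Anxa11, plus strand, chr14:25842329-25842546: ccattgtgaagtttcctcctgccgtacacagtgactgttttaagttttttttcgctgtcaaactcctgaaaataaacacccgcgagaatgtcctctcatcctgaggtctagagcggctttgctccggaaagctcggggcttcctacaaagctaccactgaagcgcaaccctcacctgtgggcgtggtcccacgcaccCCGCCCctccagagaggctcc
The table held windows for 7 of the 9 annexins, and Anxa3 and Anxa6 were not among them. In the whole windows of 250 bases before each RefSeq start, GGGCGG occurred 3 times for Anxa2, 3 times for Anxa11, 4 times for the downstream start of Anxa7 and 1 time for its upstream start, and not for Anxa1, Anxa4, Anxa5 or Anxa8. It was found in 32.7% of all 32851 windows of this length. TATAAA lay 32 bases before the start of Anxa1 and 17 bases before that of Anxa2, against 12.4% of all windows with a match. The AP-1 letters TGANTCA occurred in the window of Anxa2 only, and in 6.75% of all windows. CCAAT and the CArG box of serum response factor were in none of the annexin windows, against 33.8% and 1.47% of all windows, and the TEAD letters GGAATG were in that of Anxa1 only, against 12.6%. Both strands were searched. The windows of the Anxa7 starts overlap, so the match of the upstream start is the same site as 1 of the 4 of the downstream start. No other matches overlapped. A match is a description of the letters and not a binding site.

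Some facts of the series bear on every value that follows. Values are normalized counts, which are reads per gene divided by a size factor per library, and the read totals that could be recovered lay between 9853000 and 12229175 in 5 libraries. Gnaq, the gene of Gαq, was slightly higher and not lower at the RNA level (1691 ± 48.5 normalized counts in WT and 1926 ± 36.0 in GαqKO, SD, n = 3 each, log2 fold change 0.19). Gna11 was lower (2148 ± 29.0 and 451.6 ± 28.7). The study reports loss of the Gαq protein in its GαqKO MEFs by Western blot and immunofluorescence, which RNA counts do not measure. GαqKO stands throughout for the libraries so labelled, and directions are drawn from the labels. Among markers of fibroblasts, Vim was abundant in each library, between 32788 and 44614 normalized counts. Of 9 fibroblast markers, 4 were higher and 5 lower in GαqKO at an adjusted p under 0.05 in limma, beside 31.8% and 34.1% of all tested genes. Col1a1, Col1a2, Col3a1, Fn1 and Vim were higher in WT, with 16671 and 5774 normalized counts on average in WT and GαqKO for Col1a1 and 11826 and 7117 for Fn1. Pdgfra, Pdgfrb, Thy1 and Dcn were higher in GαqKO. Pdgfra and Dcn were low in the libraries labelled WT, at 17.5 to 21.9 and 30.1 to 35.5 normalized counts, against 2274 to 2356 and 1604 to 1710 in GαqKO. Of 7 epithelial markers, Cdh1, Krt14 and Krt19 were tested and all 3 were higher in WT, beside 34.1% of all tested genes. The summed level of the list was 1044 to 1143 normalized counts in WT and 11.1 to 30.1 in GαqKO. In WT, Cdh1 had 235.1 to 241.2 normalized counts, Krt14 253.5 to 261.0 and Krt19 506.1 to 602.5, while Epcam and Krt5 stayed at or under 5.22 in each WT library. The part of this marker difference in the annexin values was not tested. In bulk RNA, fewer cells of a type and less RNA per cell cannot be told apart.

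Of the 9 annexins, 7 reached 10 normalized counts in 3 or more libraries and were tested. In the GαqKO libraries Anxa2, Anxa5, Anxa7 and Anxa11 were higher and Anxa3, Anxa4 and Anxa6 were lower, each at an adjusted p under 0.05 in limma with Benjamini-Hochberg adjustment over all 14096 genes tested. By the same rule 65.8% of all tested genes were called, 31.8% higher and 34.1% lower, so a call by itself says little about this family. The fold threshold of the study, a log2 difference of 1 either way, was passed by 1 annexin, Anxa6, which fell, against 20.7% of all tested genes (10.2% higher and 10.5% lower). In all 7 tested annexins the libraries of the groups did not overlap, as was the case for 69.6% of all tested genes. The median size of the log2 fold change was 0.31 over the 7 annexins and 0.39 over all tested genes. Anxa1 and Anxa8 were listed at 0 in each library and were not tested.

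**Figure D1:**
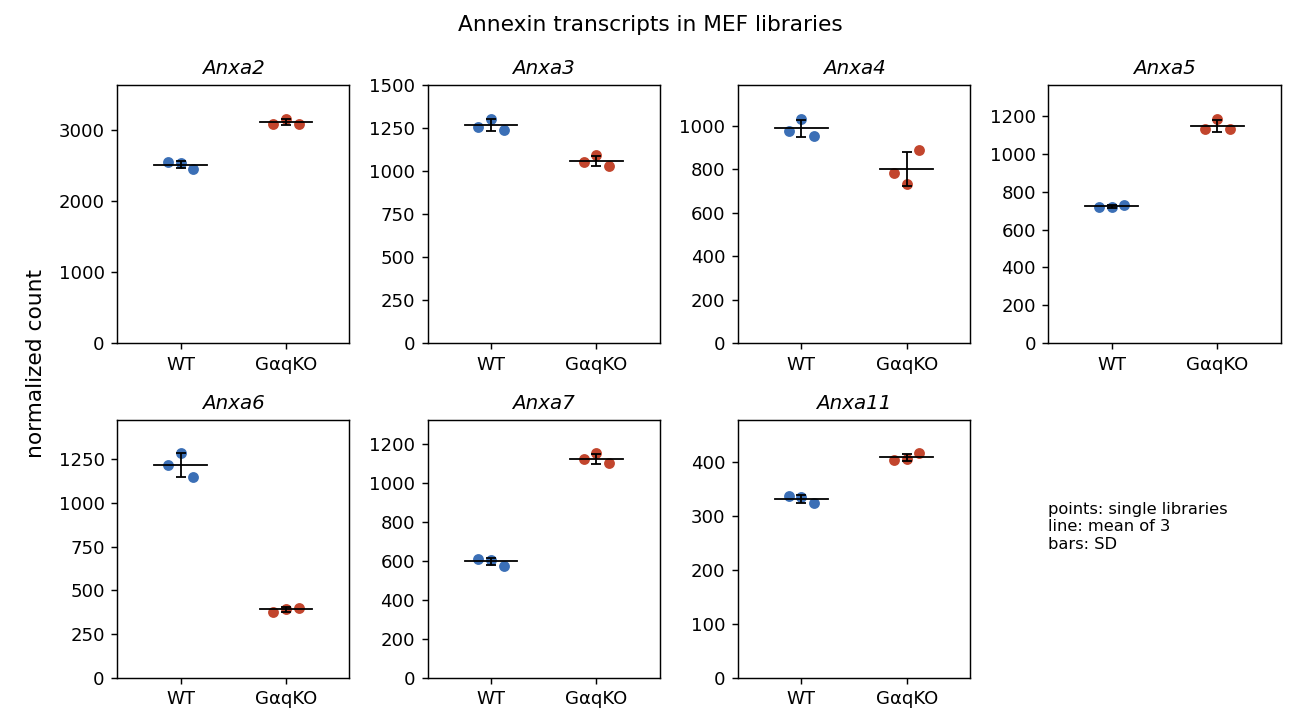
Normalized counts of the 7 tested annexins (vertical axes, each starting at 0) in the 3 WT libraries (blue) and the 3 GαqKO libraries (red), with the mean as a line and the SD as bars. In none of the 7 panels do the points of the 2 groups overlap, and Anxa6 shows the widest gap, from 1150 or more in WT to 399.8 or less in GαqKO.

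Annexin A6 is the largest member of the family, with a core that is duplicated, and it is known from endosomes and cholesterol-rich membranes. Its gene, Anxa6 (ENSMUSG00000018340.14), lies on chromosome 11 of GRCm39 from 54869654 to 54924305, on the minus strand. It had 1219, 1284 and 1150 normalized counts in the WT libraries and 376.5, 395.4 and 399.8 in the GαqKO libraries. The highest GαqKO library was thus far below the lowest WT library. The log2 fold change was -1.64 (standard error 0.062, 95% interval -1.77 to -1.50, adjusted p = 3.9e-11 from limma), which is 3.11-fold lower. Among all tested genes, 6.91% had a lower log2 fold change than Anxa6. When each library was left out or another setting was used, the log2 fold change stayed between -1.68 and -1.52.

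Annexin A7 and annexin A11 carry long segments rich in glycine and proline ahead of the core, and both bind penta-EF-hand proteins. Anxa7 (ENSMUSG00000021814.18; chromosome 14, 20505328 to 20530201, minus strand) had 609.8, 607.1 and 576.1 normalized counts in WT and 1121, 1153 and 1103 in GαqKO. This was the largest rise among the annexins tested. Its log2 fold change was 0.91 (standard error 0.054, 95% interval 0.80 to 1.03, adjusted p = 4.25e-09 from limma), which is 1.88-fold higher and under the fold threshold of the study. Anxa11 (ENSMUSG00000021866.16; chromosome 14, 25842547 to 25887229, plus strand) had 338.3, 335.1 and 323.7 normalized counts in WT and 403.8, 407.0 and 416.9 in GαqKO. The groups did not overlap, but the step was small. In limma Anxa11 had a log2 fold change of 0.30 (SE 0.072, adjusted p = 0.00219), and the adjusted p was 0.0778 in DESeq2 on the recovered reads of 5 libraries, which ends the call. Over the 17 alternatives its adjusted p ran from 0.00133 to 0.0778. Of its exon bases, 19.3% lie inside the spans of other genes, among them the antisense gene Anxa11os, which was listed at 0 in each library.

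Annexin A5 is the annexin whose binding to phosphatidylserine is used to stain dying cells. Anxa5 (ENSMUSG00000027712.14; chromosome 3, 36503072 to 36530126, minus strand) had 718.4, 721.8 and 731.8 normalized counts in WT and 1132, 1189 and 1133 in GαqKO. The 3 WT libraries were close together and all GαqKO libraries lay above them. The log2 fold change was 0.67 (standard error 0.051, 95% interval 0.56 to 0.78, adjusted p = 6.37e-08 from limma), or 1.59-fold higher. The other tested genes of chromosome 3 were also shifted, with a median log2 fold change of 0.32 over 734 genes. With the median of each chromosome removed, Anxa5 had a log2 fold change of 0.34 (adjusted p = 7.04e-05 from limma).

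Annexin A2 forms a complex with the S100a10 protein that links membranes to actin and serves as a docking site for plasminogen and its activator. Anxa2 (ENSMUSG00000032231.15; chromosome 9, 69360542 to 69399077, plus strand) was the most abundant annexin, with 2548, 2537 and 2449 normalized counts in WT and 3087, 3159 and 3082 in GαqKO. All GαqKO libraries were higher than all WT libraries. The log2 fold change was 0.31 (standard error 0.041, 95% interval 0.22 to 0.40, adjusted p = 1.57e-05 from limma), or 1.24-fold higher.

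Annexin A3 and annexin A4 are short members, the former known from neutrophils and the latter from epithelia and secretory membranes. Anxa3 (ENSMUSG00000029484.13; chromosome 5, 96940544 to 96993828, plus strand) had 1259, 1306 and 1241 normalized counts in WT and 1054, 1091 and 1030 in GαqKO. Its groups were apart, and limma gave a log2 fold change of -0.26 (SE 0.05, adjusted p = 0.000384), or 1.20-fold lower. Anxa4 (ENSMUSG00000029994.18; chromosome 6, 86713675 to 86771064, minus strand) had 976.3, 1034 and 954.7 normalized counts in WT and 781.3, 734.2 and 889.2 in GαqKO. The third GαqKO library came nearest to WT, and Anxa4 had the widest spread among the GαqKO libraries of the annexins tested, with a coefficient of variation of 9.91%. In limma Anxa4 had a log2 fold change of -0.31 (SE 0.07, adjusted p = 0.00157), and the value ran from -0.24 without the second GαqKO library (adjusted p = 0.0112) to -0.38 without the third (adjusted p = 0.000379).

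Annexin A1, which signals through formyl peptide receptors and limits inflammation, and annexin A8, known from epithelia, could not be followed. Anxa1 (ENSMUSG00000024659.16; chromosome 19, 20350792 to 20368374) and Anxa8 (ENSMUSG00000021950.16; chromosome 14, 33807936 to 33822528) were listed at 0 in all 6 libraries. In the GENCODE annotation all exon bases of both lie inside the span of a gene on the opposite strand, 1500015L24Rik for Anxa1 and A630023A22Rik for Anxa8, and none lie in its exons. These genes had 5.78 to 15.1 normalized counts over the 6 libraries for 1500015L24Rik, and 7.77 to 13.6 in WT and 0 in GαqKO for A630023A22Rik. Of 482 protein-coding genes placed in this way, 74.5% were listed at 0, against 29.9% of 8745 whose exons lie outside the spans of other genes and 5.64% of 10919 whose exons lie partly inside them. The 0 of Anxa1 and Anxa8 is therefore given as listed and not as an absence of transcript. Of the tested annexins, Anxa2 had 22.5% of its exon bases inside other spans, Anxa4 16.9%, Anxa6 8.32%, Anxa5 6.46%, Anxa3 4.51% and Anxa7 0%.

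Beyond the 9, the table holds 3 further annexin genes at low levels. Anxa9 had 38.6, 42.7 and 22.4 normalized counts in WT and 44.1, 33.5 and 41.3 in GαqKO, and its groups overlapped. Its log2 fold change was 0.23 (95% interval -0.35 to 0.81, adjusted p = 0.462 from limma), an interval that does not show that it stayed the same. Anxa13 had 2.04 to 10.4 normalized counts in WT and 6.04 to 10.4 in GαqKO. Anxa10 had 1.04, 0 and 3.05 in WT and 0 in each GαqKO library. Neither of them was tested.

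**Figure D2:**
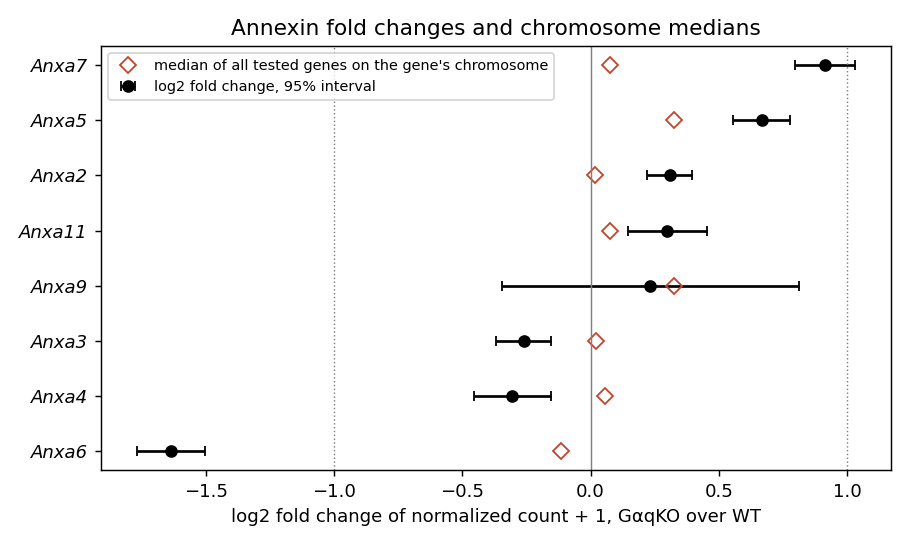
Log2 fold changes of the 8 tested annexin genes between GαqKO and WT (horizontal axis, on the scale of log2 of the normalized count plus 1) with 95% intervals from limma; dotted lines mark 1 and -1, and open diamonds the median log2 fold change of all tested genes on the same chromosome. Anxa6 lies beyond -1, Anxa7 just under 1, and the diamonds of Anxa5 and Anxa9, which share a chromosome, lie at 0.32, the farthest from 0.

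For the other tested members the median of their chromosome was smaller in size than their own change, least clearly for Anxa11. The medians were log2 fold changes of -0.11 on chromosome 11 (Anxa6), 0.07 on chromosome 14 (Anxa7 and Anxa11), 0.02 on chromosome 9 (Anxa2), 0.02 on chromosome 5 (Anxa3) and 0.06 on chromosome 6 (Anxa4). With these medians removed, the log2 fold change was -1.52 for Anxa6, 0.84 for Anxa7, 0.22 for Anxa11, 0.29 for Anxa2, -0.28 for Anxa3 and -0.36 for Anxa4, all with an adjusted p under 0.05 in limma.

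**Figure D3:**
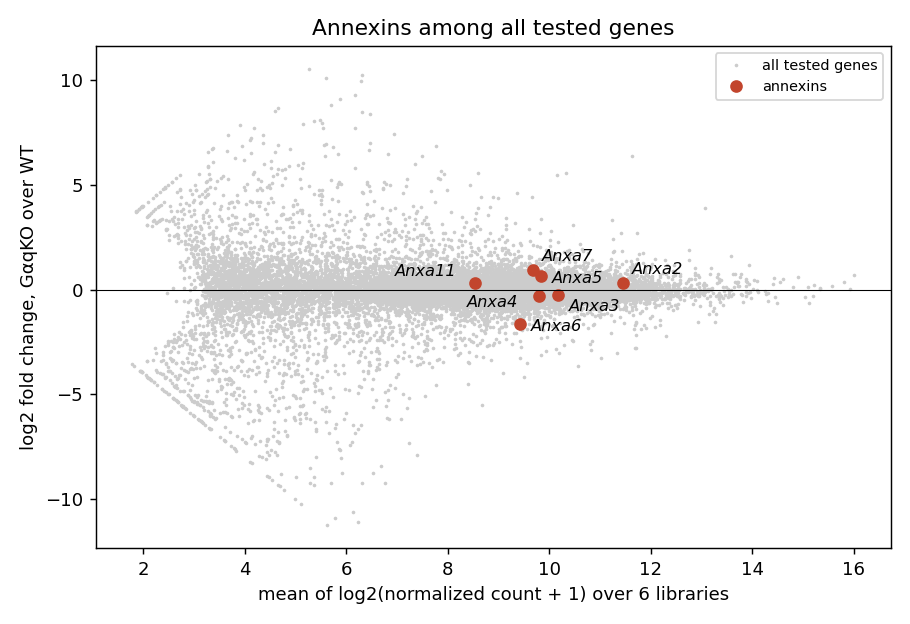
Log2 fold change between GαqKO and WT (vertical axis) against the mean of log2(normalized count + 1) over the 6 libraries (horizontal axis) for all 14096 tested genes (grey) and the 7 tested annexins (red). Except for Anxa6 at -1.64, the annexins lie within 1 of the zero line, inside the grey cloud.

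Levels can be compared between members only per length, so the normalized counts were divided by the merged exon length in kilobases. In WT the order was Anxa2 (499.4 ± 10.8 normalized counts per kilobase, SD, n = 3), Anxa3 (204.3 ± 5.38), Anxa6 (179.6 ± 9.89), Anxa4 (159.5 ± 6.58), Anxa7 (91.6 ± 2.87), Anxa5 (85.4 ± 0.82) and Anxa11 (42.8 ± 0.99). No neighbours in this order overlapped between libraries. In GαqKO the order was Anxa2 (618.2 ± 8.60), Anxa7 (172.5 ± 3.88), Anxa3 (170.5 ± 4.98), Anxa5 (135.8 ± 3.84), Anxa4 (129.4 ± 12.8), Anxa6 (57.6 ± 1.82) and Anxa11 (52.6 ± 0.88). There the libraries of Anxa7 and Anxa3 overlapped, as did those of Anxa5 and Anxa4. Anxa6 thus went from the third place to the sixth, and Anxa7 from the fifth to the second, level with Anxa3. Among tested protein-coding genes, the level per kilobase of Anxa2 was above 94.7% in WT and 96.2% in GαqKO, that of Anxa6 above 79.3% and 49.1%, and that of Anxa7 above 61.3% and 78.7%. These levels rest on a gene model of a later release than that of the authors, and on reads aligned without splitting across introns, which disfavours genes with many short exons. Exons under 150 bases held 32.6% of the exon bases of Anxa6 and 6.61% of those of Anxa7, against a median of 6.52% over tested protein-coding genes. The part of this in the order of the members was not tested.

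**Figure D4:**
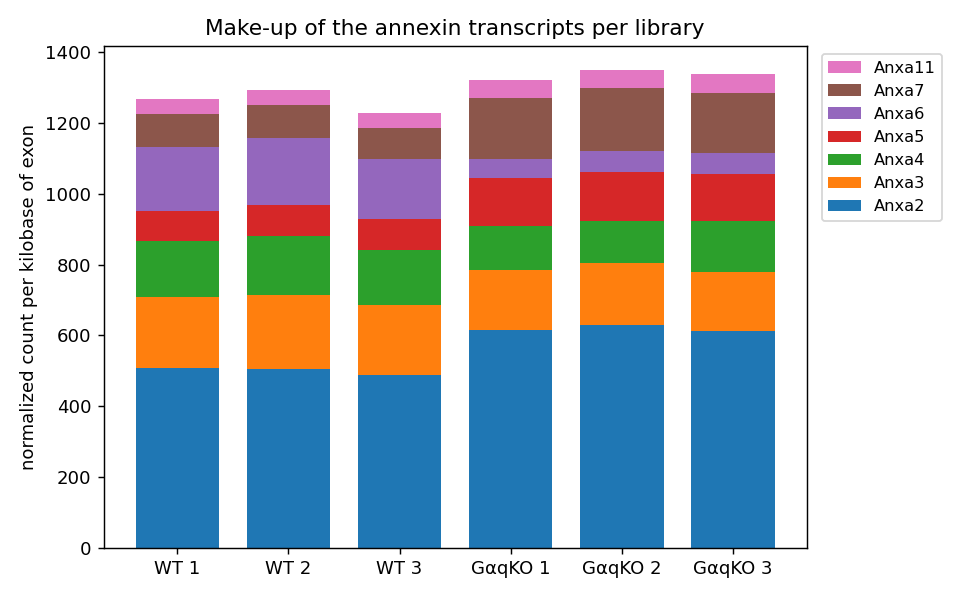
Level of each tested annexin as normalized counts per kilobase of merged exon (vertical axis from 0), stacked for each of the 6 libraries. The total is 1227 to 1292 in WT and 1322 to 1350 in GαqKO, while the purple block of Anxa6 shrinks and the brown block of Anxa7 widens in each GαqKO library.

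The sum over the 7 tested annexins moved little while its make-up changed. Anxa1 and Anxa8 entered it at their listed 0, so any transcript of theirs is missing from the sum and the shares. The annexins summed to 1263 ± 33.2 normalized counts per kilobase in WT and 1337 ± 13.8 in GαqKO (SD, n = 3 each), a ratio of 1.06 (exact permutation test, two-sided, p = 0.1, the smallest that 3 against 3 libraries can give). Without Anxa2 the sum was 763.3 ± 24.02 in WT and 718.4 ± 8.60 in GαqKO, in the opposite direction. This does not single out Anxa2, since no other member was left out in this way. Per kilobase, Anxa2 had 499.4 in WT and 618.2 in GαqKO, and Anxa7 had 91.6 and 172.5. As a share of the summed level per kilobase, Anxa6 took 14.2% ± 0.42 in WT and 4.31% ± 0.10 in GαqKO (SD, n = 3 each). The share of Anxa7 was 7.26% ± 0.10 in WT and 12.9% ± 0.24 in GαqKO, and that of Anxa2 39.6% ± 0.46 and 46.3% ± 0.38. Within each library the ratio of Anxa7 to Anxa6 per kilobase was 0.52, 0.49 and 0.52 in WT and 3.09, 3.03 and 2.87 in GαqKO. In WT the coefficient of variation ran from 0.97% for Anxa5 to 5.50% for Anxa6, beside 3.74% and 2.88% from counting alone.

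Anxa6, as the tested annexin with the largest change, was set beside all other tested protein-coding genes by the distance between their centred log2 values over the 6 libraries. The closest were Retreg1 (distance 0.088), Emp2 (0.094) and Ammecr1 (0.128). Retreg1 had 641.2 ± 37.7 normalized counts in WT and 205.8 ± 11.8 in GαqKO, Emp2 1004 ± 28.5 and 310.2 ± 6.49, and Ammecr1 2044 ± 81.7 and 682.4 ± 12.9 (SD, n = 3 each). With 2 groups of libraries this likeness mostly restates a fall of the same size.

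The partners of annexins did not move one way. Of 16 partner genes, 12 were tested, and at the limma threshold 5 rose and 5 fell, while past the fold threshold 1 was higher and 3 were lower, beside 31.8% and 34.1% of all tested genes that were higher and lower, and 10.2% and 10.5% past the fold threshold. The list had a median log2 fold change of 0.14 beside -0.01 over all tested genes. S100a10, the partner of annexin A2, had 3848, 3451 and 3039 normalized counts in WT and 5226, 5098 and 4979 in GαqKO. It was higher, as Anxa2 was, by 0.57 on the log2 scale (SE 0.067, limma adjusted p = 4.57e-06). S100a10 lies on chromosome 3, as Anxa5 does, and with chromosome medians removed its log2 fold change was 0.25 (adjusted p = 0.00552). S100a11, which binds annexin A1 and annexin A2, had 478.2, 441.0 and 451.9 normalized counts in WT and 263.9, 264.8 and 285.0 in GαqKO, a fall with a log2 fold change of -0.75 (adjusted p = 1.2e-06 from limma). S100a11 also lies on chromosome 3, and with chromosome medians removed its fall was larger, at -1.08 (adjusted p = 4.99e-08 from limma). S100a6, or calcyclin, a partner of annexin A11, had 9014, 7901 and 7025 normalized counts in WT and 12946, 13256 and 13980 in GαqKO, a log2 fold change of 0.75 (adjusted p = 4.72e-07 from limma). S100a6 is on chromosome 3 too, and its log2 fold change was 0.43 with chromosome medians removed (adjusted p = 0.000116).

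Sri and Pdcd6, the penta-EF-hand partners of annexin A7 and annexin A11 in this list, were lower, whereas Anxa7 and Anxa11 were higher. The call of Anxa11 was lost in DESeq2, and other penta-EF-hand partners were not looked at. Sri, the gene of sorcin, had 1134, 1149 and 1048 normalized counts in WT and 514.6, 579.3 and 487.4 in GαqKO. It fell by 1.08 on the log2 scale (SE 0.07, limma adjusted p = 1.1e-08), with 55.6% of its exon bases inside the spans of other genes. Pdcd6, the gene of ALG-2, was lower as well, with 713.6 ± 26.7 and 564.6 ± 21.2 normalized counts (SD, n = 3 each) and a log2 fold change of -0.34 (adjusted p = 0.000252 from limma). The large scaffold gene Ahnak, whose protein binds the complex of annexin A2 and S100a10, had 11974, 13030 and 18056 normalized counts in WT and 16938, 16047 and 14487 in GαqKO, and the groups overlapped (adjusted p = 0.224 from limma, 95% interval of the log2 fold change -0.08 to 0.40). Ahnak was called higher without WT replicate 3 (log2 fold change 0.34, adjusted p = 0.000419) and with chromosome medians removed (0.31, adjusted p = 0.0278).

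The plasminogen system, which annexin A2 helps to localise, held changes in both directions. Plat, the gene of tissue plasminogen activator, had 448.0, 432.3 and 415.3 normalized counts in WT and 100.5, 128.3 and 152.1 in GαqKO. It fell by 1.78 on the log2 scale (SE 0.13, limma adjusted p = 3.85e-08), whereas the urokinase gene Plau and its receptor gene Plaur rose, with log2 fold changes of 0.62 and 0.41 (adjusted p = 2.45e-05 and 6.07e-05 from limma). With chromosome medians removed, Plaur had a log2 fold change of 0.23. Plg, the gene of plasminogen, was at or under 0.94 in each library. Of the formyl peptide receptor genes, Fpr1 and Fpr3 had at most 3.89 and 2.04 normalized counts. Fpr2 was listed at 0 in each library, and all of its exon bases lie inside the span of Fpr3, so its 0 is given as listed. S100a4, also known as FSP1, had 169.8 ± 24.3 normalized counts in WT and 517.8 ± 34.7 in GαqKO and S100a1 had 54.1 ± 10.7 and 20.7 ± 1.97 (SD, n = 3 each), both past the fold threshold. S100a4 and S100a1 lie on chromosome 3, and with chromosome medians removed their log2 fold changes were 1.29 and -1.65. Of the exon bases of S100a4, 82.2% lie inside other spans, and all of those of S100a1 and Plau do, so these values are uncertain. Pla2g4a, the phospholipase whose activity annexins can restrain, had a log2 fold change of 0.12 (95% interval -0.07 to 0.30, adjusted p = 0.258 from limma).

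Of 14 genes of plasma membrane repair, where annexins act beside ferlins, calpains and ESCRT proteins, 13 were tested, and at the limma threshold 4 rose and 5 fell, which is close to the 31.8% and 34.1% of all tested genes. The median log2 fold change of the repair genes was -0.01, the same as over all tested genes. Ahnak and Pdcd6 are in the partner list as well, so the fall of Pdcd6 is counted in both lists. The ferlins differed. Myof rose, from 1463 ± 75.6 to 1907 ± 61.5 normalized counts, and Dysf fell past the fold threshold, from 56.2 ± 15.1 to 15.6 ± 3.52 (SD, n = 3 each). Of all tested genes, 10.5% fell past that threshold. The calpain subunits Capn1 and Capn2 were lower, with log2 fold changes of -0.44 and -0.42, and their shared small subunit Capns1 was higher at 0.47 (adjusted p = 0.000513, 5.19e-05 and 2.58e-05 from limma). Ehd2, which shapes the necks of caveolae, had the largest rise of this list, from 1759 ± 89.3 to 2907 ± 41.6 normalized counts (SD, n = 3 each). Of the ESCRT genes, Chmp4b rose slightly, with a log2 fold change of 0.13 (limma adjusted p = 0.0167), a call that was lost in edgeR and DESeq2, without a trend in the prior spread, and without WT replicate 2 or GαqKO replicate 3 (adjusted p = 0.0608 to 0.113). Pdcd6ip, Tsg101 and Vps4b had adjusted p of 0.124, 0.934 and 0.152 in limma, and Vps4b was lower without WT replicate 3 (log2 fold change -0.15, adjusted p = 0.033). Fer1l5, a further ferlin gene, was lower with a log2 fold change of -0.74 (limma adjusted p = 0.00703), and its adjusted p was 0.112 in DESeq2. With chromosome medians removed, Capns1 had a log2 fold change of 0.29 and Capn1 of -0.30. Of the exon bases of Capns1, 60.6% lie inside the spans of other genes, beside 30.4% for Capn1 and 22.6% for Capn2.

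Copines and extended synaptotagmins are other proteins that bind membranes when calcium rises, through C2 domains. Of these 12 genes 6 were tested, and at the limma threshold none rose and 4 fell (median log2 fold change -0.57). Of all tested genes, 31.8% were higher and 34.1% lower. Past the fold threshold 1 gene of the list was lower, beside 10.5% of all tested genes. Esyt1, which tethers the endoplasmic reticulum to the plasma membrane, had 438.6, 387.6 and 413.2 normalized counts in WT and 61.0, 78.6 and 68.5 in GαqKO. It fell by 2.56 on the log2 scale (SE 0.121, limma adjusted p = 3.87e-10), and 41.2% of its exon bases lie inside the spans of other genes. Cpne3, Cpne8 and Esyt2 had log2 fold changes of -0.85, -0.59 and -0.54. Cpne2 and Esyt3, at 0.09 and 0.42, had adjusted p of 0.24 and 0.413. With chromosome medians removed, Cpne2 turned to -0.20 (adjusted p = 0.0274) and Cpne3 had a log2 fold change of -0.50. Cpne1, which lies wholly inside the spans of other genes, was listed at 0.

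**Figure D5:**
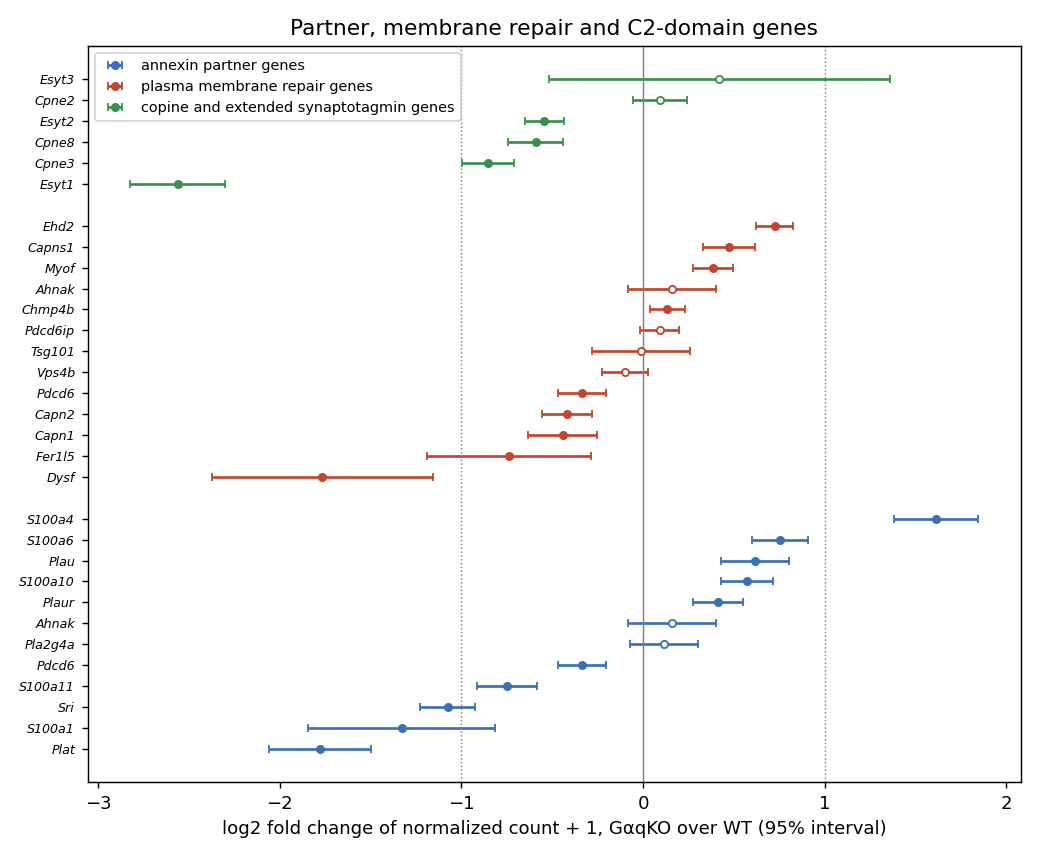
Log2 fold changes between GαqKO and WT with 95% intervals from limma (horizontal axis) for the tested genes of the partner list (blue), the plasma membrane repair list (red) and the copine and extended synaptotagmin list (green); filled points have an adjusted p under 0.05 and dotted lines mark 1 and -1. Partners and repair genes lie on both sides of 0, and Esyt1 at -2.56 lies farthest from it. Ahnak and Pdcd6 belong to both the partner and the repair list and are drawn in each.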

How the data were processed

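The authors made poly-A libraries from total RNA, aligned read pairs to GRCm39 with Rbowtie2, counted them with featureCounts on GENCODE M32, and deposited normalized counts from DESeq2, a signal in which each gene count is divided by a size factor per library. Versions and the strand setting are not given in the sources used here. Rbowtie2 runs Bowtie 2, which does not split reads across introns. Symbols, positions and merged exons came from GENCODE M39, which matched 56310 identifiers.

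Groups followed the sample titles. limma 3.58.1 (R 4.3.3) with a trend in the prior spread was fitted to log2(normalized count + 1) over genes with at least 10 in at least 3 libraries. This scale understates the changes of low genes. The labels do not say that replicates are separate cultures (the study calls them biological), so p-values measure the spread between these libraries, which may be technical. No replicate pair was as close as counting noise allows (chi-square of 2.44 to 5.50 per gene in the 4 pairs compared).

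The values stepped in units of 1 read in each library (100% of them whole within 0.01). The recovered reads of 5 libraries were accepted by a check of the unit, and those of GαqKO replicate 3 were not and are not used. edgeR 4.0.16 and DESeq2 1.42.0 were run on the 5 libraries. Scripts were tested on simulated data. Tables were made with Python 3.11.15, numpy 2.4.6, scipy 1.17.1 and pandas 2.3.3, and figures with matplotlib 3.10.9.

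Named genes were the 9 annexins, 3 other annexins, Gnaq and Gna11, the listed partner, repair and C2-domain genes past both thresholds, 6 fixed partners, and the 3 nearest patterns to the annexin that changed most; other genes of these lists, their overlapping genes and the marker genes were named after their values were seen. Members and lists were chosen with earlier results of these data known.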

Additional observations from a re-analysis of the deposited data

How the results depend on the processing

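The numbers of annexins called, 4 higher and 3 lower with 0 and 1 past the fold threshold, stayed within 1.5 times under TMM and upper-quartile scaling, both other filters, pseudocounts of 0.5 and 5, no trend in the prior spread, removal of chromosome medians, edgeR, DESeq2 and each library left out. DESeq2 on 5 libraries called 3 annexins higher in place of 4, since Anxa11 passed the threshold no longer; no annexin changed direction. The cause was not tested. The 3 related lists also stayed within 1.5 times, with 10 partner, 9 repair and 4 copine or synaptotagmin genes called (10 to 11, 8 to 11 and 4 with a library left out, and 11, 10 and 5 with chromosome medians removed; DESeq2 called 7 repair genes). The log2 ratio of the summed level per kilobase was 0.08, and 0.06 to 0.10 with a library left out. Same-numbered WT and GαqKO libraries did not deviate together (correlations of -0.05, -0.15 and -0.06 over genes), so no pairing by number was seen. With 3 libraries per group these correlations cannot decide whether the numbers mark a shared culture or preparation. With the replicate number as a block 4 annexins were again higher and 3 lower, 10, 9 and 4 genes of the related lists were called, and Anxa6 had a log2 fold change of -1.64; over all genes it called 4324 higher and 4638 lower in place of 4479 and 4800. On recovered reads edgeR called 4352 higher and 4523 lower. Past the fold threshold, 1432 genes were higher and 1486 lower, against 831 and 765 when every library had to reach 10, which tests fewer genes. Anxa10 and Anxa13 were under the minimum for testing, and the coefficient of variation of Anxa9 in WT was 31.1%, beside 17.1% from counting.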

Other observations

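Markers of other cell types were low apart from the epithelial genes. The summed level of 5 endothelial markers was 12.6 to 23.0 normalized counts in WT and 18.8 to 26.6 in GαqKO, and that of 6 leukocyte markers 105.5 to 120.5 and 70.4 to 105.2. The 5 skeletal muscle markers summed to at most 8.06 in any library, and the 5 glial and neuronal markers to 65.9 to 82.5. Of 4 adipocyte markers, Fabp4 was higher in GαqKO, with 0 to 1.94 normalized counts in WT and 23.1 to 28.2 in GαqKO, while Adipoq, Plin1 and Lep had at most 1.16. Thy1 was at 0 to 2.09 normalized counts in WT and 59.0 to 76.5 in GαqKO.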
